A study of Mus musculus with 16 samples.

Results

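The subunits of respiratory complexes II to V were followed as 1 set of 45 genes, out of 17074 genes in a table of cerebellar RNA-Seq. Its members were taken by name, as the genes whose Ensembl identifier carries the symbol of a complex II, III, IV or V subunit. They comprise 4 genes of complex II, 10 of complex III, 14 of complex IV and 17 of complex V, with 39 encoded in the nucleus and 6 on mitochondrial DNA. All 45 were measured, and all 45 had the mean of 10 or more normalized counts required for testing. Cerebellum came from female C57BL/6 mice in 4 groups with 4 RNA-Seq libraries each: aged (18-month-old) Acsl6-/-, aged control, young (2-month-old) Acsl6-/- and young control. Acsl6-/- mice carry a germline deletion in all tissues, made by crossing floxed mice to a CMV-Cre line, and lack the acyl-CoA synthetase that activates docosahexaenoic acid for membrane phospholipids. The treatment field of the aged mice reads natural aging. Because neither the labels nor the methods say that each library came from its own animal, p values measure the spread between libraries.

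These complexes carry out the later steps of oxidative phosphorylation. Complex II (succinate dehydrogenase) passes electrons from succinate to ubiquinone, complex III (cytochrome bc1) passes them on to cytochrome c, complex IV (cytochrome c oxidase) hands them to oxygen, and complex V (ATP synthase) uses the proton gradient to make ATP. Complex II is built wholly from nuclear genes, whereas complexes III to V combine nuclear subunits with a few that are translated inside mitochondria from transcripts of mitochondrial DNA. The cerebellar cortex relies on this pathway for the energy of its granule and Purkinje neurons.

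Recovered reads in genes ranged from 16953548 to 27569428 per library, and each value is a normalized count, that is, reads divided by 1 size factor per library. Acsl6 itself had 2101, 2276, 2195 and 2140.0 normalized counts in aged Acsl6-/- libraries, against 5839, 5918, 6086 and 6037 in aged control libraries, and 2248, 2336, 2297 and 2290.4 in young Acsl6-/- libraries, against 6973, 6840.2, 6902 and 6296 in young control libraries, with no overlap between the genotypes at either age. Its log2 fold changes were -1.45 in aged mice (limma adjusted p = 4.97e-15) and -1.56 in young mice (limma adjusted p = 1.45e-15). The choroid plexus gene Ttr was above 5000 normalized counts in 5 libraries (aged Acsl6-/- library 1, aged control libraries 3 and 4, and young control libraries 1 and 4) and between 87.9 and 435 in the others. Aged control library 3 also stood apart by 686717 normalized counts of the gene model Gm42418, against 11003 to 41707 in the other libraries. Results were therefore also computed without these 5 libraries.

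Levels were compared between genes per kilobase of the principal transcript. Of the nuclear members, Atp5b (the catalytic beta subunit of ATP synthase) was highest with a mean of 11729.5 normalized counts per kb over the 16 libraries, followed by Cox4i1 (the largest nuclear subunit of cytochrome c oxidase) with 7715 and Atp5a1 (the alpha subunit) with 6793. Lowest were Atp5g1 (1 of the genes for the c-ring) with 365, Sdhc (a membrane anchor of succinate dehydrogenase) with 553 and Uqcrq (a small subunit of complex III) with 795 normalized counts per kb. Atp5g1, Sdhc and Uqcrq have principal transcripts of 4715, 3171 and 1521 bases in the annotation used, against 1916 for Atp5b and 2471 for Atp5a1. Where several transcripts of a gene shared the best rank in the annotation, the longest was taken, and the level per kb depends on that choice. The ranges over the 16 libraries of the 3 highest (10980.4 to 12446 for Atp5b, 6485 to 8684 for Cox4i1 and 6431 to 7181 for Atp5a1) kept Atp5b above the others but overlapped between Cox4i1 and Atp5a1.

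In aged mice, 5 nuclear subunits of complexes III, IV and V were lower in Acsl6-/- than in control cerebellum. With the limma test at an adjusted p under 0.05, 5 of the 45 members were lower and 0 were higher, where 0.158% of all 17042 genes tested were lower and 0.0821% higher. These were Uqcr10 in complex III, Cox6b1 and Cox8a in complex IV, and Atp5e and Atp5j2 in complex V. They are 5 of only 27 genes called lower in that comparison. In bulk tissue, fewer cells of a type and less RNA per cell cannot be told apart.

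Uqcr10, a small subunit of complex III, had 765, 771, 739 and 718 normalized counts in aged Acsl6-/- cerebellum, 932, 944, 904 and 865 in aged control, 928, 887, 855 and 863 in young Acsl6-/- and 895, 875, 892 and 923 in young control cerebellum. The 4 aged Acsl6-/- libraries were the lowest of all 16, with a log2 fold change against aged control of -0.28 ± 0.044 (SE, limma adjusted p = 0.00845). Atp5e, the epsilon subunit in the central stalk of ATP synthase, had 701, 624, 639.6 and 651 normalized counts in aged Acsl6-/- cerebellum, 858, 903, 989 and 813 in aged control, 929.6, 867, 720.4 and 802 in young Acsl6-/- and 925, 873, 943 and 949 in young control cerebellum. Its aged Acsl6-/- libraries were again the lowest 4, and its log2 fold change of -0.44 ± 0.071 (SE, limma adjusted p = 0.012) was the largest of the 39 nuclear members. Cox6b1, a subunit on the intermembrane face of cytochrome c oxidase, had 1591, 1594, 1499 and 1558 normalized counts in aged Acsl6-/- cerebellum, 1851, 1904, 1984 and 1812 in aged control, 2046, 1871, 1784 and 1882 in young Acsl6-/- and 1853, 1930.1, 2016 and 1986 in young control cerebellum. All aged Acsl6-/- libraries lay below all others, with a log2 fold change of -0.27 ± 0.045 (SE, limma adjusted p = 0.012).

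Cox8a, the smallest nuclear subunit of cytochrome c oxidase, had 3046, 2884, 2747 and 2763 normalized counts in aged Acsl6-/- cerebellum, 3366, 3619, 3234 and 3224 in aged control, 3705, 3499, 3409 and 3569.7 in young Acsl6-/- and 3845, 3782, 3807 and 3931 in young control cerebellum. The groups did not overlap between genotypes at 18 months, where the log2 fold change was -0.23 ± 0.043 (SE, limma adjusted p = 0.0232), nor at 2 months, where it was -0.12 ± 0.043 (SE, limma adjusted p = 0.277) and did not pass the test. Atp5j2, the f subunit in the membrane part of ATP synthase, had 1145, 1041, 1072 and 1178 normalized counts in aged Acsl6-/- cerebellum, 1377, 1435, 1276 and 1323 in aged control, 1534, 1342, 1291 and 1378 in young Acsl6-/- and 1453, 1467, 1447 and 1545 in young control cerebellum. Its aged Acsl6-/- libraries were also below every other library, with a log2 fold change of -0.29 ± 0.055 (SE, limma adjusted p = 0.0286) against aged control.

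**Figure D1:**
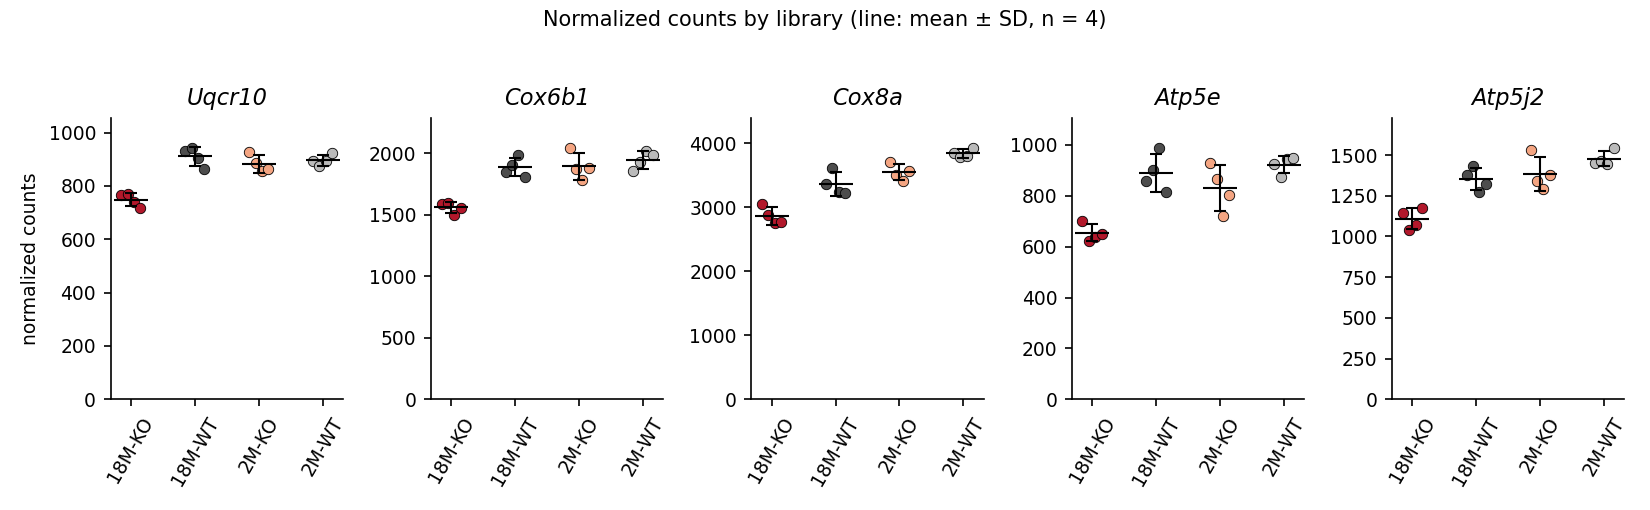
Normalized counts (vertical axis, from 0) of the 5 subunit genes that passed the test between genotypes at 18 months, in the 4 libraries of each group (points) with the mean ± SD (lines). The 4 aged Acsl6-/- libraries (18M-KO) are the lowest for every gene shown, for example 718 to 771 for Uqcr10 against 865 to 944 in aged control libraries (18M-WT).

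The other 40 members did not pass the test in this comparison. Of the 45 members, 41 had a log2 fold change below 0 at 18 months, where 48.8% of all genes tested did, and in 20 members all 4 aged Acsl6-/- libraries were below all 4 aged control libraries, where 2.28% of all genes were. In 0 members were all aged Acsl6-/- libraries above, where 2.89% of genes were, and 27 members had an unadjusted p under 0.05, where 9.15% of genes did. The median over the 39 nuclear members was -0.14, beside 0.0027 over all genes tested. By complex, the medians were -0.012 for complex II, -0.10 for complex III, -0.17 for complex IV and -0.14 for complex V. Of the nuclear members that missed the threshold, the lowest log2 fold changes were those of Uqcrq (-0.29, limma adjusted p = 0.0718), Atp5k (-0.27, 0.0877), Uqcr11 (-0.22, 0.254) and Atp5g1 (-0.20, 0.239). In complex III, the log2 fold changes of the cores and redox subunits were -0.0084 for Uqcrc1, -0.037 for Uqcrc2, -0.093 for Uqcrfs1 (the Rieske iron-sulfur protein, without overlap between groups) and 0.031 for Cyc1. The redox subunits Sdha and Sdhb of complex II had 0.019 and -0.086, and in the F1 head of ATP synthase Atp5a1 had 0.017, Atp5b -0.017, Atp5c1 -0.050 and Atp5d -0.14. None of these 10 passed the limma test. The F1 head list of 5 genes also holds Atp5e, which did pass (-0.44, limma adjusted p = 0.012).

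The count of 5 was 16 with DESeq2, where 0.557% of all genes were called lower. With edgeR on recovered reads it was 6, where 49 of 17042 genes were called in either direction. In a fit of only the aged groups it was 2. Without the libraries high in Ttr it was 3, where 0.0939% of genes were called lower. It was also 3 without aged Acsl6-/- library 2 or 3, or without aged control library 1 or 2, each in turn. For these left-out fits and the fit of only the aged groups, the share of all genes called is not given here. Without the libraries high in Ttr, 2 of the 5 members above kept their call. Of the markers of granule cells, Purkinje cells, astrocytes, oligodendrocytes, microglia, choroid plexus, endothelium and red blood cells, limma called 0 between genotypes at 18 months, while DESeq2 and edgeR each called 1 microglia marker. At an unadjusted p under 0.05 with limma there were 3 microglia, 3 red blood cell, 1 granule cell, 1 Purkinje cell and 1 astrocyte markers.

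In young mice, no member passed the limma test between young Acsl6-/- and young control cerebellum, where 0.0763% of all genes were called lower and 0.135% higher, and DESeq2 and edgeR also called 0. At an unadjusted p under 0.05 there were 2 members with limma (Cox8a and Atp5e), 3 with DESeq2 and 3 with edgeR, where 12.1% of all genes were at that level with limma. The libraries did not overlap in 2 members that were lower in Acsl6-/- mice (Cox8a and mt-Co2), where 3.36% of genes were, and in 0 that were higher, where 3.29% were. The median of the nuclear members was -0.024, and 32 of the 45 members had a log2 fold change below 0, where 50.6% of all genes did. The genotype by age interaction, the log2 fold change at 18 months minus that at 2 months, called 0 members lower or higher with limma, where 0.0117% of genes were called lower and 0.00587% higher, 0 with edgeR and 1 with DESeq2 (mt-Co1). At an unadjusted p under 0.05 there were 16 members with limma, 15 with DESeq2 and 16 with edgeR, where 10% of all genes were at that level with limma. Its value was below 0 in 40 of 45 members, where 48.6% of genes were, with a median of -0.12 in nuclear members and the smallest adjusted p for Uqcr10 (-0.26 ± 0.062 SE, limma adjusted p = 0.166). 

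**Figure D2:**
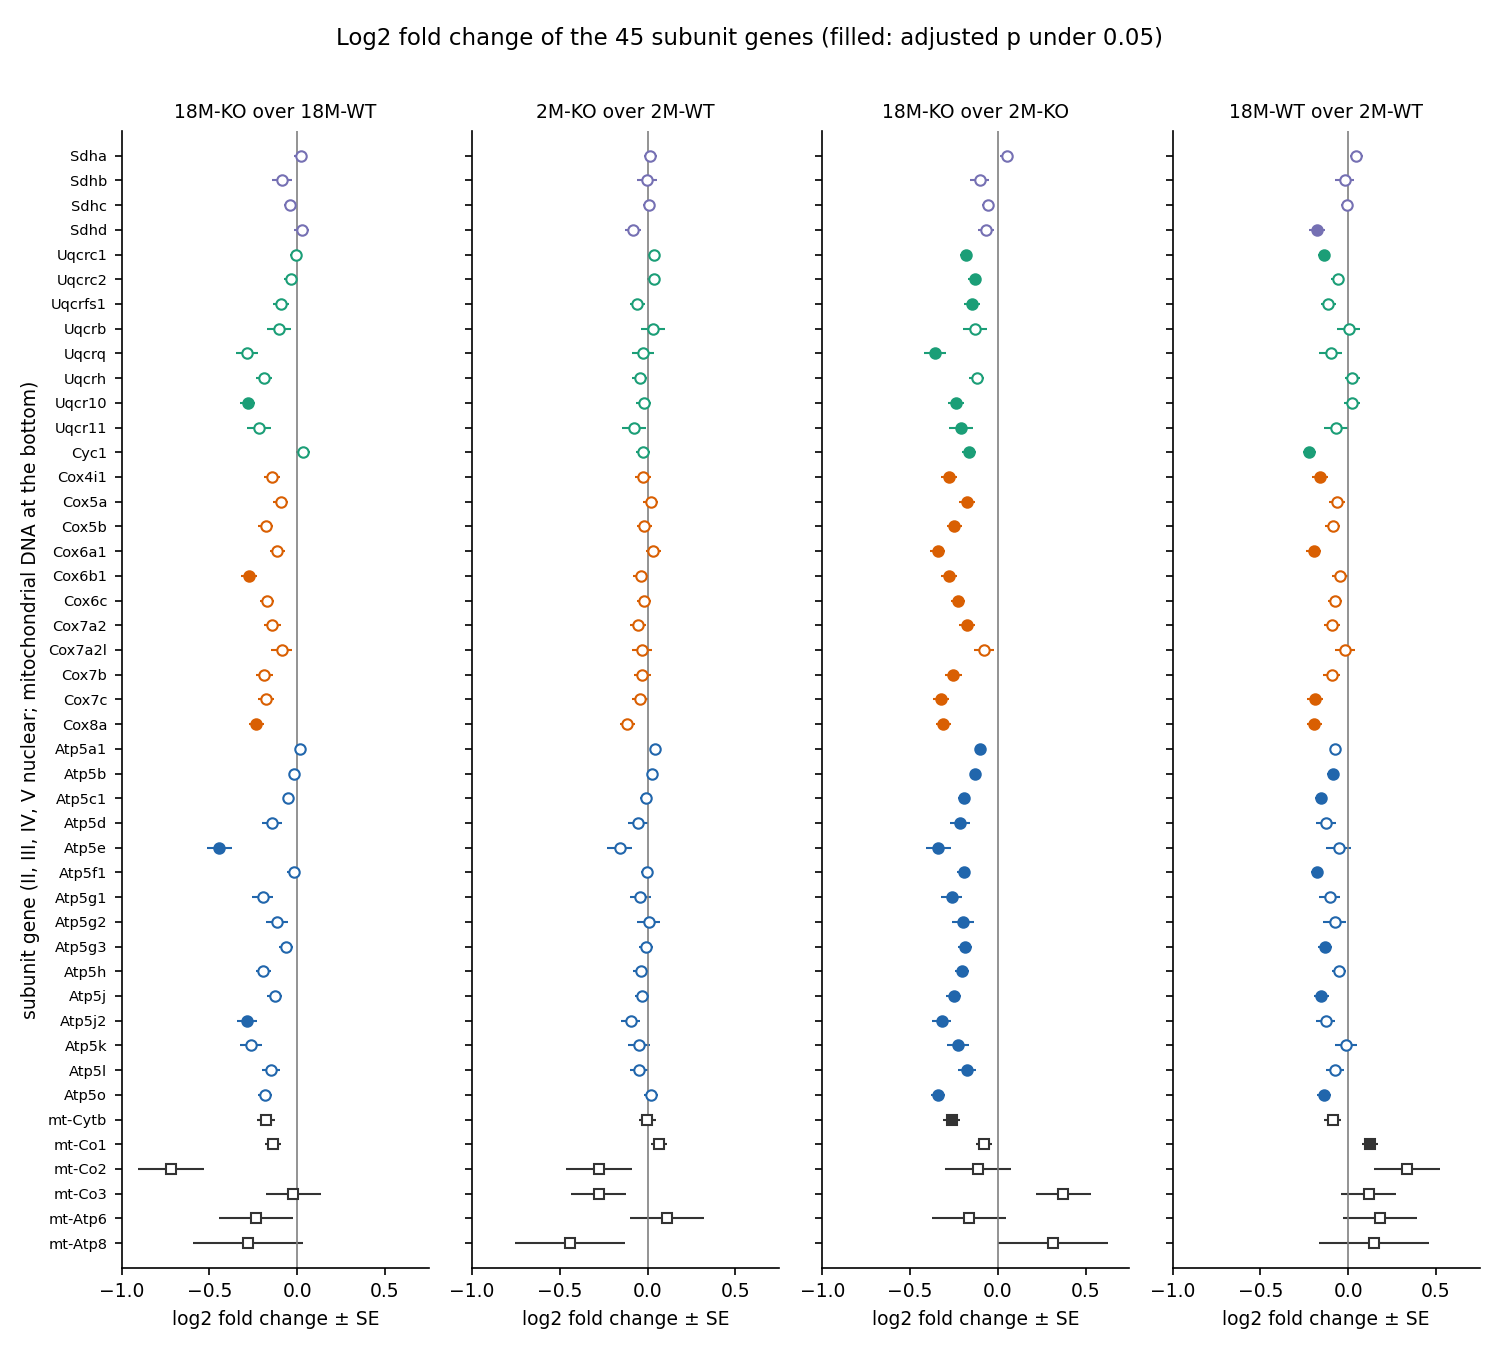
Log2 fold change ± SE (horizontal axes) of each of the 45 subunit genes (vertical axis) in 4 comparisons; circles are nuclear genes coloured by complex, squares are genes on mitochondrial DNA, and filled symbols passed an adjusted p under 0.05. Filled symbols number 5 between genotypes in aged mice, 0 in young mice, 33 with age in Acsl6-/- mice and 14 with age in control mice.

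With age, transcripts of complexes III, IV and V fell in the Acsl6-/- cerebellum. In aged against young Acsl6-/- mice, 33 of the 45 members were lower and 0 higher, where 11.6% of all genes tested were lower and 11.6% higher. By complex, 0 of 4 fell in complex II, 7 of 9 nuclear members in complex III, 10 of 11 in complex IV and 15 of 15 in complex V, with medians of -0.063, -0.16, -0.25 and -0.20 on the log2 scale, beside -0.00015 over all genes tested. In 29 members every aged library was below every young library, where 12.2% of genes were, and in 1 (mt-Co3) above, where 11.5% were. In all, 42 members had a log2 fold change below 0, where 50% of genes did, and 35 had an unadjusted p under 0.05, where 35.1% did.

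In complex V, Atp5o (the oligomycin sensitivity-conferring subunit that joins the catalytic head to the peripheral stalk) had 2107, 2043, 1999 and 2154 in aged Acsl6-/- cerebellum, against 2699, 2588, 2613 and 2601 in young Acsl6-/- cerebellum. These groups were well apart, and the log2 fold change was -0.34 ± 0.040 (SE, limma adjusted p = 1.02e-05). Atp5e and Atp5j2, whose counts are given above, had log2 fold changes of -0.34 ± 0.071 (SE, limma adjusted p = 0.00209) and -0.32 ± 0.055 (SE, limma adjusted p = 0.00037), with no overlap between ages. At the other end, Atp5a1 had 16724, 16012, 16255 and 16518 in aged Acsl6-/- cerebellum, against 17441, 17408, 17745 and 17572 in young Acsl6-/- cerebellum. This was the smallest fall in complex V, at -0.10 ± 0.030 (SE, limma adjusted p = 0.0223), and still without overlap.

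In complex IV, Cox6a1 (the form of subunit VIa found outside heart and skeletal muscle) had 2549, 2319, 2374 and 2349 in aged Acsl6-/- cerebellum, against 3154, 3162, 2974 and 2872 in young Acsl6-/- cerebellum, a log2 fold change of -0.34 ± 0.042 (SE, limma adjusted p = 1.66e-05). Cox7c, a small membrane subunit, had 1378, 1356, 1373 and 1257 in aged Acsl6-/- cerebellum, against 1694, 1683, 1578 and 1763 in young Acsl6-/- cerebellum, a log2 fold change of -0.32 ± 0.045 (SE, limma adjusted p = 5.96e-05). For both genes all 4 aged libraries were below all 4 young ones, as they were for Cox8a (-0.31 ± 0.043 SE, limma adjusted p = 5.14e-05). Cox7a2l, a relative of subunit VIIa that takes part in joining complexes III and IV into supercomplexes, had 1437, 1263, 1364 and 1297 in aged Acsl6-/- cerebellum, against 1453, 1502, 1304 and 1397 in young Acsl6-/- cerebellum. These groups overlapped, and its value of -0.077 ± 0.057 (SE, limma adjusted p = 0.365) did not pass, unlike the other 10 nuclear members of complex IV.

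In complex III, Uqcrq had 1109.7, 904, 1021 and 994 in aged Acsl6-/- cerebellum, against 1332, 1281, 1208 and 1338 in young Acsl6-/- cerebellum, and its log2 fold change of -0.36 ± 0.064 (SE, limma adjusted p = 0.000535) was the largest of the nuclear members. Uqcr11, another small subunit, had 818, 689, 749 and 703 in aged Acsl6-/- cerebellum, against 938, 856, 787 and 836 in young Acsl6-/- cerebellum. Here the groups overlapped, with -0.21 ± 0.068 (SE, limma adjusted p = 0.0334), while Uqcr10 dropped by 0.24 ± 0.044 (SE, limma adjusted p = 0.00068) on the log2 scale. Uqcrh, the acidic hinge protein, had 1577, 1680.5, 1556 and 1535 in aged Acsl6-/- cerebellum, against 1773, 1722, 1692 and 1711 in young Acsl6-/- cerebellum. Its aged libraries were all below the young ones, but at -0.12 ± 0.043 (SE, limma adjusted p = 0.0515) it missed the threshold.

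In complex II, limma, DESeq2 and edgeR called 0 members, and 0 had an unadjusted p under 0.05. Sdha, the flavoprotein that oxidizes succinate, had 9071, 9177, 8620.4 and 9216 in aged Acsl6-/- cerebellum, against 8827, 8662, 8619 and 8733 in young Acsl6-/- cerebellum. The groups overlapped and the log2 fold change was 0.050 ± 0.036 (SE, limma adjusted p = 0.337). Sdhb (the iron-sulfur subunit), Sdhc and Sdhd (the membrane anchors) had -0.10, -0.057 and -0.068, with limma adjusted p of 0.198, 0.264 and 0.291. No test between complexes was made.

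In control mice, 13 members fell with age. Between aged and young control cerebellum these were 13 of the 45 members, where 16% of all genes tested were lower, and 1 member, mt-Co1, was higher, where 15.3% of all genes were. By complex, 1 of 4 fell in complex II, 2 of 9 nuclear members in complex III, 4 of 11 in complex IV and 6 of 15 in complex V. The median log2 fold change of the nuclear members was -0.088, beside 0.0060 over all genes, and 18 members had every aged control library below every young control library, where 15.5% of genes did, with 0 members above, where 14.8% of genes were. In all, 36 members had a log2 fold change below 0, where 48.9% of genes did, and 18 had an unadjusted p under 0.05, where 42.1% did.

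Cyc1, cytochrome c1, had 2384, 2586, 2389.9 and 2410.0 in aged control cerebellum, against 2913, 2754, 2734 and 2983 in young control cerebellum. This gene had the largest fall of the set in control mice, at -0.22 ± 0.039 (SE, limma adjusted p = 0.000335), without overlap. Uqcrc1, a core subunit of complex III, had 3587, 3665, 3689 and 3716 in aged control cerebellum, against 4215, 3865, 3920.0 and 4135 in young control cerebellum, which do not overlap (-0.14 ± 0.034 SE, limma adjusted p = 0.00501). Uqcrb, the ubiquinone-binding protein of complex III, had 1088, 1030.4, 1224 and 1099.8 in aged control cerebellum, against 1014, 1104, 1130.2 and 1185 in young control cerebellum. Its groups overlapped, with 0.0025 ± 0.068 (SE, limma adjusted p = 0.984).

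Cox6a1 had 2629.5, 2698, 2459.5 and 2589 in aged control cerebellum, against 3028, 2872, 3041 and 2936 in young control cerebellum, a log2 fold change of -0.20 ± 0.042 (SE, limma adjusted p = 0.00184). Cox7c had 1603, 1529, 1407 and 1539.8 in aged control cerebellum, against 1704, 1736, 1743 and 1737 in young control cerebellum, a log2 fold change of -0.19 ± 0.045 (SE, limma adjusted p = 0.00412). In both, and in Cox8a (-0.19 ± 0.043 SE, limma adjusted p = 0.00212), no aged control library reached the lowest young control library. Cox7a2l had 1520.5, 1375, 1426 and 1379.7 in aged control cerebellum, against 1376, 1347, 1493 and 1569.8 in young control cerebellum, with overlapping groups and -0.020 ± 0.057 (SE, limma adjusted p = 0.823).

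Of ATP synthase, Atp5f1 (subunit b of the peripheral stalk) had 3504, 3494, 3391 and 3445 in aged control cerebellum, against 3951, 3838, 3791 and 4057 in young control cerebellum, a log2 fold change of -0.18 ± 0.036 (SE, limma adjusted p = 0.00107). Atp5c1, the gamma subunit of the rotating shaft, had 2775, 2897, 2936 and 2858 in aged control cerebellum, against 3185, 3158, 3136 and 3278 in young control cerebellum, a log2 fold change of -0.15 ± 0.033 (SE, limma adjusted p = 0.00179). Atp5j, coupling factor 6 of the peripheral stalk, had 1920.5, 2053, 1939.9 and 1924 in aged control cerebellum, against 2217, 2089.9, 2199.6 and 2207 in young control cerebellum. All 3 genes fell without overlap, the last at -0.15 ± 0.041 (SE, limma adjusted p = 0.00897). Atp5k, the e subunit, had 828, 865, 868 and 737 in aged control cerebellum, against 790.4, 835, 852 and 836 in young control cerebellum, which overlap (-0.0096 ± 0.063 SE, limma adjusted p = 0.924).

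Sdhd was the only member of complex II that fell with age, and it fell in control mice. It had 1205, 1181, 1190.0 and 1171 in aged control cerebellum, against 1378, 1282, 1329 and 1380.0 in young control cerebellum, a log2 fold change of -0.18 ± 0.044 (SE, limma adjusted p = 0.00544), without overlap. Sdhc had 1797, 1718, 1788 and 1738 in aged control cerebellum, against 1807, 1744, 1745 and 1772 in young control cerebellum, with overlapping groups and -0.0056 ± 0.035 (SE, limma adjusted p = 0.92).

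The age comparisons of the genotypes share no library, but both use the same estimate of spread per gene, from all 16 libraries. Their calls are therefore not independent, and the same overlap over all genes tested is not given here. Of the 13 members that fell in control mice, 12 also fell in Acsl6-/- mice, which is 92.3% of the control calls and 36.4% of the 33 Acsl6-/- calls. The 12 were Uqcrc1, Cyc1, Cox4i1, Cox6a1, Cox7c, Cox8a, Atp5b, Atp5c1, Atp5f1, Atp5g3, Atp5j and Atp5o. A further 21 passed the test in Acsl6-/- mice and not in control mice, among them the small subunits Uqcr10, Uqcr11 and Uqcrq, and Cox5a, Cox5b, Cox6b1, Cox6c, Cox7a2 and Cox7b. The age log2 fold change was lower in Acsl6-/- than in control mice for 36 of the 39 nuclear members (all but Sdha, Sdhd and Cyc1), and the limma interaction called none of them. For Uqcr10 the log2 fold change with age was -0.24 in Acsl6-/- mice and 0.023 in control mice, and for Cox6b1 it was -0.28 in Acsl6-/- mice and -0.044 in control mice.

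Without the libraries high in Ttr, 33 members were called lower with age in Acsl6-/- mice, where 10.7% of genes were, but only 1 (Atp5c1) in control mice, where 8.35% of genes were. That control comparison then rests on 2 aged and 2 young libraries. The median of the nuclear members in control mice was -0.053 in that fit.

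The level of each complex in a library was summarized as the median over its nuclear members of the log2 value minus that gene's mean over the 16 libraries. For complex IV it was -0.14, -0.15, -0.19 and -0.22 in aged Acsl6-/- libraries, 0.011, 0.021, 0.022 and -0.036 in aged control, 0.13, 0.083, 0.014 and 0.070 in young Acsl6-/- and 0.084, 0.066, 0.13 and 0.14 in young control libraries. The 4 aged Acsl6-/- libraries were the lowest of the 16 for complex IV, and likewise for complex III, where they ranged from -0.17 to -0.058 against -0.035 to 0.022 in aged control. For complex V they ranged from -0.20 to -0.048 against -0.051 to 0.050 in aged control, so that aged Acsl6-/- library 1 and aged control library 3 met. For complex II the groups overlapped, from -0.12 to 0.014 in aged Acsl6-/- and from -0.023 to 0.014 in aged control libraries. Aged Acsl6-/- library 1, which was high in Ttr, was the least low of its group for complexes II to V.

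**Figure D3:**
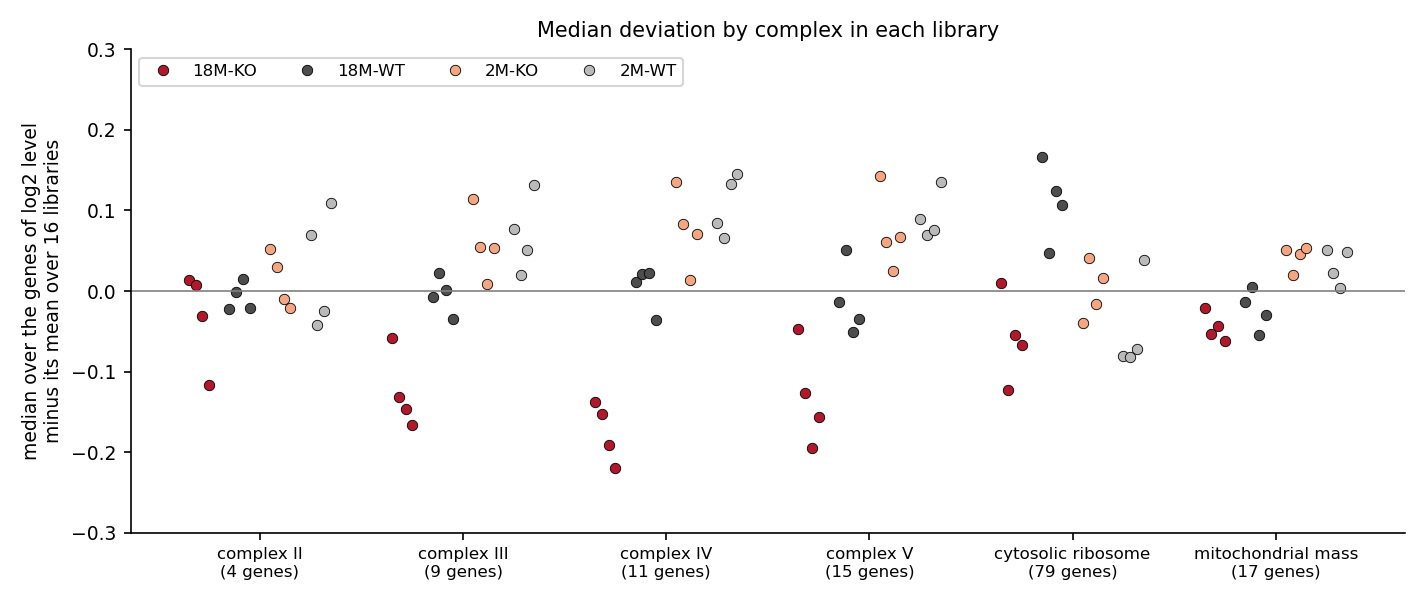
Median deviation (vertical axis, log2) of the nuclear subunits of each complex and of 2 other gene lists (horizontal axis) in each library (points), by group. The aged Acsl6-/- libraries (18M-KO) lie between -0.22 and -0.14 for complex IV, below all others, while for the cytosolic ribosome the aged control libraries (18M-WT) lie highest, between 0.047 and 0.17.

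Other gene lists put these values beside related transcripts. Of all genes tested, limma called 0.158% lower and 0.0821% higher between genotypes at 18 months. With age it called 11.6% lower and 11.6% higher in Acsl6-/- mice, and 16% lower and 15.3% higher in control mice. Of 36 nuclear complex I subunits, 2 were lower at 18 months in Acsl6-/- against control cerebellum (Ndufa2, at -0.42 ± 0.062 SE, limma adjusted p = 0.0061, and Ndufs5, at -0.28 ± 0.053 SE, limma adjusted p = 0.0252), 25 were lower with age in Acsl6-/- mice and 7 in control mice. Medians over this list were -0.13, -0.17 and -0.076, beside -0.14, -0.20 and -0.088 for the nuclear members of complexes II to V in the same order. Of 79 cytosolic ribosomal proteins, 10 were lower at 18 months in Acsl6-/- cerebellum, 13 were lower and 1 higher with age in Acsl6-/- mice, and 0 were lower and 48 higher with age in control mice. Between genotypes at 18 months the ribosomal list had a median of -0.16, with 78 of 79 genes below 0. In 35 of them the aged Acsl6-/- libraries were all below the aged control libraries, and 61 had an unadjusted p under 0.05. With age its median was -0.040 in Acsl6-/- mice. In control mice the ribosomal list had a median of 0.17 with age while the nuclear subunits had -0.088. Of 17 genes of the mitochondrial outer membrane, carriers, import and matrix (Vdac1, Tomm20, Cs and others), 0 were called at 18 months between genotypes by limma, DESeq2 or edgeR (1 at an unadjusted p under 0.05 in limma), and 4 were lower and 0 higher with age in Acsl6-/- mice and 4 lower and 1 higher in control mice, with medians of -0.029 between genotypes, -0.070 in Acsl6-/- and -0.055 in control mice.

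Markers of several cell types moved with age, where 11.6% of all genes tested fell and 11.6% rose in Acsl6-/- mice. In control mice 16% of all genes fell and 15.3% rose. Of 7 granule cell markers, 7 were lower in Acsl6-/- and 6 in control mice, and their summed level was 84748 to 98781 normalized counts in aged Acsl6-/-, 83853 to 88674 in aged control, 111061 to 116852 in young Acsl6-/- and 108085 to 125339 in young control libraries. Of 7 oligodendrocyte markers, 7 were lower in Acsl6-/- mice and 2 in control mice, with sums of 73760.2 to 93785 in aged Acsl6-/-, 72477 to 110641 in aged control, 102953 to 130588 in young Acsl6-/- and 92593 to 106495 in young control libraries. Of 7 microglia markers, 7 were higher in each genotype, with sums of 3424 to 4403 in aged Acsl6-/-, 2893 to 3325 in aged control, 1749.7 to 2128 in young Acsl6-/- and 1415 to 1823 in young control libraries. Of 7 astrocyte markers, 1 was lower and 2 higher in Acsl6-/- mice, and 1 was lower and 3 higher in control mice, with Gfap at 1.08 in Acsl6-/- and 1.51 in control mice, and sums of 46970.3 to 49805 in aged Acsl6-/-, 47555 to 49811 in aged control, 46278 to 47443 in young Acsl6-/- and 42755 to 44014 in young control libraries. Of 5 red blood cell markers, 2 were lower in Acsl6-/- mice, with a median of -0.56, while in control mice limma, DESeq2 and edgeR called 0, with 0 at an unadjusted p under 0.05 and a median of 0.16. Their sums were 1013 to 1429.7 in aged Acsl6-/-, 1458 to 1937 in aged control, 1038 to 2379 in young Acsl6-/- and 1173 to 1730.0 in young control libraries. Of 7 Purkinje cell markers, 1 was lower and 1 higher in Acsl6-/- mice, and of 5 endothelial markers 1 was lower and 1 higher in each genotype. The 7 choroid plexus markers had 0 calls in either genotype with limma, DESeq2 and edgeR, 0 at an unadjusted p under 0.05 with limma, and sums of 3114 to 25331 in aged Acsl6-/-, 2747 to 47781 in aged control, 2923 to 3809 in young Acsl6-/- and 2469 to 15979 in young control libraries. No marker of these lists was at 0. In young mice limma called 1 marker between genotypes, Gfap, higher in Acsl6-/- cerebellum (0.50, limma adjusted p = 0.0475). DESeq2 called 2 astrocyte markers and edgeR 0. Means of Gfap were 2432 and 1720 in young Acsl6-/- and control mice, and 5129 and 4884 in aged ones. At an unadjusted p under 0.05, limma had 5 oligodendrocyte, 3 microglia, 2 astrocyte, 2 endothelial, 1 granule cell and 1 Purkinje cell markers in young mice. All 7 oligodendrocyte values were above 0. The part of cell composition in the fall of the subunits was not tested.

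The 6 members on mitochondrial DNA were at very different levels. mt-Co1, the catalytic subunit of cytochrome c oxidase, had 233490.2, 246450.3, 233997 and 232893 normalized counts in aged Acsl6-/- cerebellum, 260183, 268418, 262035 and 252781 in aged control, 251599, 250107, 244320.5 and 254476 in young Acsl6-/- and 239069, 234936, 230517 and 252898 in young control cerebellum. The aged Acsl6-/- libraries were below the aged control libraries without overlap, with -0.14 ± 0.045 (SE, limma adjusted p = 0.296), and the rise with age in control mice was 0.12 ± 0.045 (SE, limma adjusted p = 0.0437) with overlapping groups. mt-Cytb, the cytochrome b of complex III, had 99981, 106572, 93833 and 95633 normalized counts in aged Acsl6-/- cerebellum, 113388, 118113, 110317 and 106017 in aged control, 116203, 118306, 116095 and 124393 in young Acsl6-/- and 117581, 119102, 114249.6 and 124602 in young control cerebellum. It fell with age in Acsl6-/- mice without overlap (-0.26 ± 0.049 SE, limma adjusted p = 0.000806), and was at -0.087 ± 0.049 (SE, limma adjusted p = 0.191) in control mice and -0.18 ± 0.049 (SE, limma adjusted p = 0.173) between genotypes at 18 months. On recovered reads, DESeq2 called both mt-Co1 (-0.14, adjusted p = 0.00378) and mt-Cytb (-0.18, adjusted p = 0.0118) lower in aged Acsl6-/- than aged control cerebellum, and edgeR called mt-Co1 (-0.14, adjusted p = 0.0343). With age in Acsl6-/- mice, edgeR also called mt-Co1 lower (-0.079, adjusted p = 0.0447). Quantile normalization gave an age log2 fold change of 0.00 for mt-Cytb in Acsl6-/- mice and of -0.29 for mt-Co1 in control mice. That scaling gives each rank the same value in all libraries, so it cannot measure the change of such high genes.

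The other mitochondrial members were far lower. mt-Co2, the copper-binding subunit of cytochrome c oxidase, had 29.4, 37.9, 33.4 and 33.4 normalized counts in aged Acsl6-/- cerebellum, 55.0, 42.8, 85.7 and 47.6 in aged control, 39.1, 37.6, 28.8 and 40.4 in young Acsl6-/- and 47.7, 41.8, 43.4 and 43.2 in young control cerebellum. mt-Co3, another core subunit, had 111, 118, 129 and 109 normalized counts in aged Acsl6-/- cerebellum, 133, 119.7, 128 and 96.1 in aged control, 105, 76.3, 81.3 and 99.1 in young Acsl6-/- and 144, 98.3, 82.0 and 120.2 in young control cerebellum. mt-Atp6, the proton channel subunit of ATP synthase, had 48.0, 51.3, 36.1 and 40.7 normalized counts in aged Acsl6-/- cerebellum, 52.1, 33.0, 82.6 and 49.4 in aged control, 50.8, 43.9, 53.5 and 48.1 in young Acsl6-/- and 52.4, 44.3, 48.2 and 37.6 in young control cerebellum. None of these 3 genes was called in any comparison by limma, DESeq2 or edgeR, and their lowest limma adjusted p was 0.0944, for mt-Co3 with age in Acsl6-/- mice (0.37). mt-Atp8, a small membrane subunit, had 15.7, 22.3, 10.6 and 17.7 normalized counts in aged Acsl6-/- cerebellum, 15.2, 17.6, 33.7 and 16.5 in aged control, 14.7, 12.5, 7.2 and 19.2 in young Acsl6-/- and 12.8, 20.9, 17.4 and 20.7 in young control cerebellum. mt-Co2 had a log2 fold change of -0.72 ± 0.19 (SE, limma adjusted p = 0.134) between genotypes at 18 months, with groups that did not overlap.

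Per kilobase, mt-Co1 had a mean of 159716 and mt-Cytb of 98032 normalized counts, against 62.8 for mt-Co2, 139 for mt-Co3, 70.8 for mt-Atp6 and 84.1 for mt-Atp8. These genes are transcribed as parts of 1 long precursor, so the sequence of each transcript was searched for 100-base stretches that also occur in annotated transcripts of the nuclear genome. Such stretches made up 99.5% of mt-Co2, 99.9% of mt-Co3 and 99.5% of mt-Atp6, but 30.8% of mt-Co1 and 0% of mt-Cytb. The copies are gene models on chromosome 1 (GRCm38, minus strand): Gm28661 at 24614885 to 24615565 for mt-Co2, Gm10925 at 24613974 to 24614651 for mt-Atp6 and Gm28437 at 24613189 to 24613971 for mt-Co3. Over 681, 678 and 783 aligned bases they had 0 differences from the mitochondrial genes. The first 60 bases of mt-Co2 and of its copy are shown because a read within these bases fits both places equally, with the first codon in capitals.
mt-Co2, chrM:7013-7072, plus strand: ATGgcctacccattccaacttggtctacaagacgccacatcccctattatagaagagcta
Gm28661, chr1:24615506-24615565, minus strand: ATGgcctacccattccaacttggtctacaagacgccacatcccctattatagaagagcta
The authors counted unique hits. The copies themselves had means of 52.5 (Gm28661), 67.9 (Gm10925) and 42.3 (Gm28437) normalized counts. For mt-Atp8 no annotated nuclear transcript shared a stretch, and the bases between the neighbouring copies Gm28661 and Gm10925 are not annotated as a gene. Of the complex I genes, mt-Nd3 (97.6% shared) and mt-Nd4l (98.5% shared) were also low, at 1715 and 330.5 normalized counts per kb, while mt-Nd1, mt-Nd5 and mt-Nd6 (0% shared) had 87222, 45669.8 and 42445. Values of mt-Co2, mt-Co3, mt-Atp6 and mt-Atp8 are therefore uncertain as measures of mitochondrial transcripts, and the comparison of nuclear with mitochondrial members rests on mt-Co1 and mt-Cytb.

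**Figure D4:**
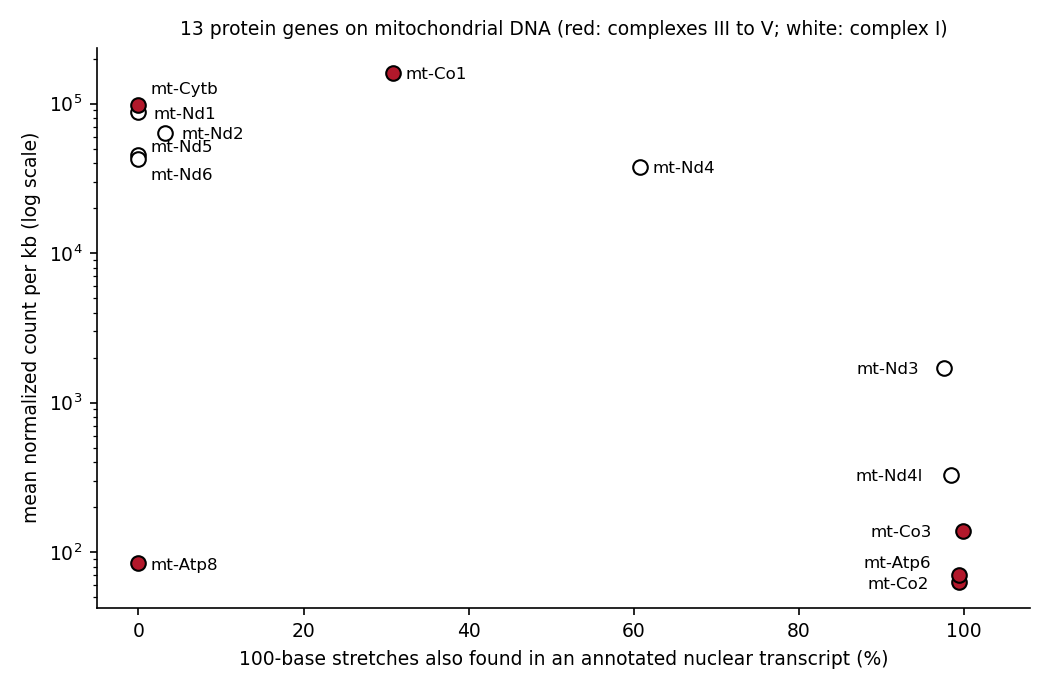
Mean normalized count per kb over 16 libraries (vertical axis, log scale) of the 13 protein genes on mitochondrial DNA against the share of their 100-base stretches that also occur in an annotated nuclear transcript (horizontal axis, %); red points are subunits of complexes III to V and white points of complex I. mt-Co2, mt-Co3 and mt-Atp6 lie at the right with 62.8 to 139 counts per kb, while mt-Co1 and mt-Cytb lie at the upper left with 159716 and 98032.

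Set against the nuclear members, mt-Co1 and mt-Cytb together amounted to 293 ± 11.1 normalized counts per 100 counts of nuclear members in aged Acsl6-/-, 309 ± 6.25 in aged control, 287 ± 6.85 in young Acsl6-/- and 278 ± 5.70 in young control libraries (SD, n = 4 each). The ratio ranged from 283 to 309 in aged Acsl6-/- and from 300 to 313 in aged control libraries, which overlap. In control mice all aged libraries (300 to 313) were above all young ones (271 to 284). In Acsl6-/- mice the ages overlapped (283 to 309 in aged and 279 to 296 in young libraries). The sum joins 2 genes that differed with age in control mice, mt-Co1 at 0.12 and mt-Cytb at -0.087 on the log2 scale. The nuclear median was -0.088 there, so the higher ratio went with mt-Co1 and not with mt-Cytb. That rise of mt-Co1 lost its call in 13 of 29 alternatives.

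Transcript length varied with the genotype difference at 18 months. All 5 members called have principal transcripts under 1000 bases, as do 22 of the 39 nuclear members. The median log2 fold change was -0.18 in these 22 and -0.043 in the 17 longer ones, of which limma and edgeR called 0 and DESeq2 2, with 5 at an unadjusted p under 0.05 in limma. Across the 39 nuclear members, log2 fold change and log2 transcript length had a Pearson's r of 0.58 and a Spearman's rho of 0.60 between genotypes in aged mice. In young mice they were 0.39 and 0.39, with age they were 0.44 and 0.39 in Acsl6-/- mice, and -0.054 and -0.18 in control mice. With log2 mean count in place of length, Pearson's r and Spearman's rho were 0.56 and 0.51 between genotypes in aged mice and 0.47 and 0.47 in young mice. With age they were 0.29 and 0.16 in Acsl6-/- mice, and -0.18 and -0.34 in control mice. Members share libraries and differ in abundance as well as length, so these values are descriptions. Over all genes tested, those whose longest transcript is under 700 bases had a median of -0.012 at 18 months and those from 700 to under 1000 bases -0.051, against medians of -0.23 and -0.18 in the 8 and 9 nuclear members of these lengths. With the trend on transcript length removed from each library, 4 members were called lower at 18 months, with a median of -0.087 in the nuclear members, and 30 with age in Acsl6-/- mice. The shares of all genes called with that trend removed are not given here. The part of RNA quality in the relation with length was not tested.

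**Figure D5:**
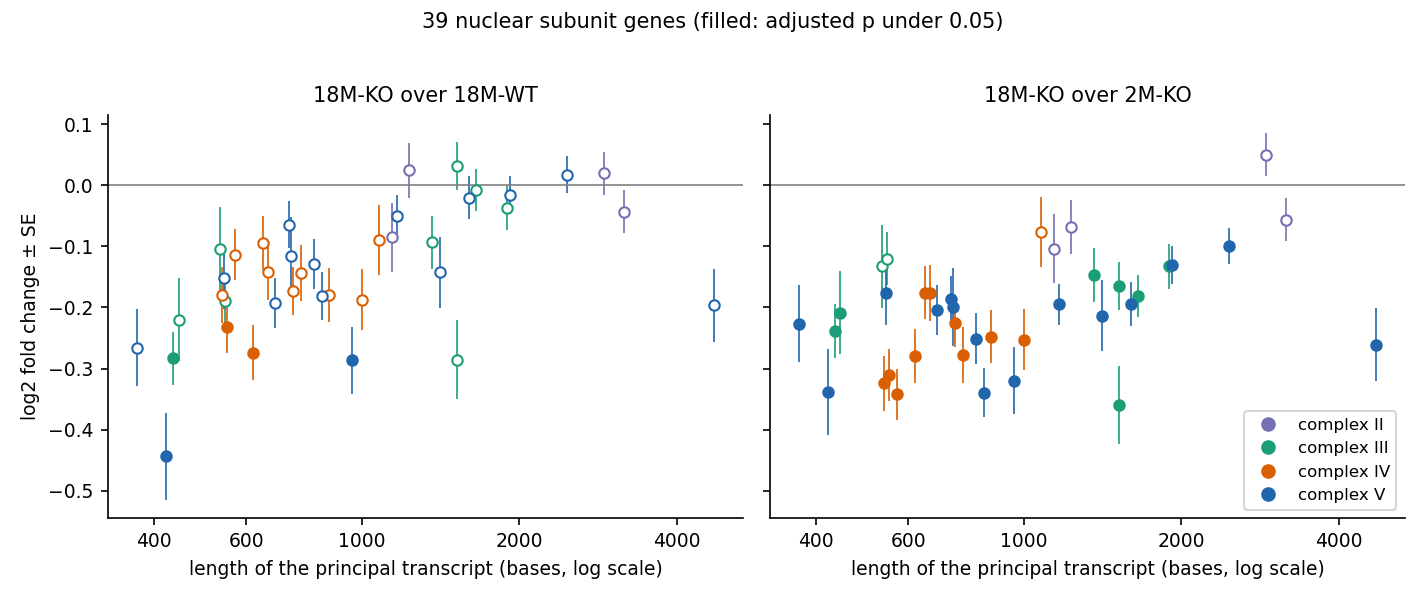
Log2 fold change ± SE (vertical axis) of the 39 nuclear subunit genes against the length of their principal transcript (horizontal axis, bases, log scale), between genotypes in aged mice (left) and with age in Acsl6-/- mice (right); colours mark complexes and filled points passed an adjusted p under 0.05. On the left the 5 filled points lie under 1000 bases, and the Pearson's r over the points is 0.58 on the left and 0.44 on the right.

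Because many nuclear members moved together, their promoters were read for letters of factors known to act on respiratory genes: CCGGAAG, read by ETS factors such as GABPA, GCATGCG, part of the palindrome read by NRF1, and ATGGCGG, part of a YY1 site, each on both strands. RefSeq (GRCm38.p6) gave promoters for 31 of the 39 nuclear members. In the 250 bases before the start, CCGGAAG was found in 9 members (29.0%, against 7.83% of 27025 genes), GCATGCG in 6 (19.4%, against 3.43%) and ATGGCGG in 1 (3.23%, against 2.58%). At least 1 of them was found in 12 of the 31 members, or 38.7%, against 12.8% of all genes. The 27025 genes are all those with a RefSeq promoter, not only the 17074 measured genes. They were not matched to the members in expression or in the base content of their promoters. Windows without annotated exons are shown for Atp5e, which had the largest genotype difference of the nuclear members at 18 months, for Atp5l, which held both an ETS and an NRF1 match, and for Uqcr10, which had the smallest adjusted p at 18 months and held none. Capitals mark the matches, with those of NRF1 overlapping on both strands of a palindrome.
Atp5e, chr2:174464106-174464351, minus strand: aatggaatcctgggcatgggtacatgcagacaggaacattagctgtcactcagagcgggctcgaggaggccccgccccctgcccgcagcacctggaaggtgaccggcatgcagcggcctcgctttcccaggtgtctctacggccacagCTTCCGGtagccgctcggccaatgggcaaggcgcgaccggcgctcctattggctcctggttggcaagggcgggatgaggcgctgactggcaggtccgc
Atp5l, chr9:44920752-44920992, minus strand: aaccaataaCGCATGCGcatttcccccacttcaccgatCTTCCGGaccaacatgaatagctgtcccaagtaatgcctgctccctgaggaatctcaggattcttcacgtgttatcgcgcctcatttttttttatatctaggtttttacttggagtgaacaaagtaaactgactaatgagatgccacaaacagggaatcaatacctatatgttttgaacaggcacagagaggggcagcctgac
Uqcr10, chr11:4704345-4704594, minus strand: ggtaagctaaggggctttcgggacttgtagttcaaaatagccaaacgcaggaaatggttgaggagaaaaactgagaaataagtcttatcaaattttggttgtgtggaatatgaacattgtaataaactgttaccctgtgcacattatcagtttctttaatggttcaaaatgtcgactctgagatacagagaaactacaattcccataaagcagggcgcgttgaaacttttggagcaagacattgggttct
Of the 5 members called at 18 months, Atp5e and Cox6b1 held the ETS letters, and Uqcr10, Cox8a and Atp5j2 held none of the 3 motifs. A match is a description of these letters only.

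Some counts could include reads of other genes. Atp5g2 shares 86.4% of its 100-base stretches with Gm10175, Atp5l 61.3%, Cox7c 44.4%, Atp5h 29.5% and Uqcrb 15.8% with other genes, most of them processed copies, so the values of these members are uncertain. Of the 5 members called at 18 months, none shares a stretch with another gene. On the opposite strand, exons of Gabpa cover 12.7% of the exon bases of Atp5j, Pdzd9 19.7% of Uqcrc2, Gm26631 12.8% of Cox5a, Gm15976 18.1% of Atp5o and Emc8 9.94% of Cox4i1, and the strand used in counting is not given in the sources used here. Reads of such partners cannot be told apart.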

How the data were processed

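RNA was measured in 16 libraries of mouse cerebellum. The authors made poly(A) libraries and sequenced them in pairs. STAR 2.5.2b placed the reads, after trimming by Trimmomatic 0.36, on the GRCm38 genome, and featureCounts counted unique exon hits per gene. The deposited values are a signal, normalized counts from DESeq2, in 1 table of 17074 genes. All values were whole multiples of 1 read's worth (tolerance 0.001), so reads were recovered. For the main test, log2(normalized count + 1) of 17042 genes with a mean of at least 10 was fitted with limma 3.58.1 (R 4.3.3) in 1 model of 4 groups, with Benjamini-Hochberg adjustment and a threshold of 0.05. A fold change is on that scale, which understates the change of low genes. DESeq2 1.42.0 and edgeR 4.0.16 on recovered reads, other filters, pseudocounts and scalings, left-out libraries and a replicate block were alternatives. In simulated data, 50 genes were changed at each of 1.25, 1.5, 2 and 4-fold in the same comparison. Between genotypes at 18 months, 30 of the 50 genes changed 1.25-fold were called, and 8 unchanged genes were called. Smaller changes, such as the median of -0.14 on the log2 scale over the nuclear members, were not simulated. Per-library values are given by a rule: for members called between genotypes, for up to 3 called nuclear members a complex with the largest change and the 1 with the smallest in each age comparison, and for all on mitochondrial DNA. Of other lists, up to 3 called genes a direction with the smallest p are named. Members and lists were chosen with earlier results of these data known. Transcripts and overlaps came from GENCODE annotation of GRCm38.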

Additional observations from a re-analysis of the deposited data

Results flagged for a closer look

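In 7 of 180 groups of 4 libraries, 1 library lay far from the other 3, and chance gives about 1 in 20. Uqcrc2 had 2838 normalized counts in aged Acsl6-/- library 3, against 2920.1 to 2929.7 in the others of its group. Cyc1 had 2559 in aged Acsl6-/- library 1 (others 2464 to 2479.5) and 2586 in aged control library 2 (others 2384 to 2410.0). Atp5j had 2053 in aged control library 2 (others 1920.5 to 1939.9) and 2089.9 in young control library 2 (others 2199.6 to 2217). mt-Co1 had 246450.3 in aged Acsl6-/- library 2 (others 232893 to 233997). mt-Atp8 had 33.7 in aged control library 3 (others 15.2 to 17.6), the library with the highest Gm42418 count.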

How the results depend on the processing

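Of 1508 results of single called genes under 29 alternatives, 94 lost the call and 2 turned direction or reached 0, both under quantile normalization: mt-Co1 with age in control mice at -0.29 and mt-Cytb with age in Acsl6-/- mice at 0.00. Quantile normalization gives every gene at a given rank the same value, so a gene whose rank is the same in all libraries shows no change. In aged control library 3, unlike the other libraries, Gm42418 (686717 normalized counts) ranked above mt-Co1. These values therefore follow ranks and cannot measure the change of such high genes. The rise of mt-Co1 lost its call in 13 of 29 alternatives. The count of 5 members called between genotypes at 18 months became 2 in a fit of only those groups and 16 with DESeq2. It was 3 to 7 with 1 library left out, and 3 without the libraries high in Ttr. In that last fit, 2 of the 5 members kept the call and 3 lost it. Among these fits, shares of all genes are given only for DESeq2 and for the fit without the libraries high in Ttr. Cox8a lost its call in 8 and Atp5j2 in 7 of the 29 alternatives. The interaction called 1 member with DESeq2. Age calls in control mice fell to 1 without the libraries high in Ttr. Medians of nuclear members with the transcript length trend removed were -0.087 at 18 months and -0.076 for the interaction, and without the libraries high in Ttr both were -0.18. The cause of the shifts in these counts and medians was not tested.

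The labels do not say what the replicate numbers mark. Of 24 same-numbered pairs, 4 had a correlation of deviations over 0.1 (range -0.20 to 0.21), beside 12 of 72 other pairs (range -0.32 to 0.30). With 4 libraries in each group, this check cannot exclude that the numbers pair libraries. A replicate block gave 5 lower members at 18 months, 0 at 2 months, 33 with age in Acsl6-/- mice, 12 with age in control mice and 0 for the interaction. The block with the transcript length trend removed gave 3 at 18 months, with medians of -0.087 there and -0.076 for the interaction. Shares of all genes called in these block fits are not given here.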

Other observations

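Other genes of the same machinery were measured beside the 45 subunits. Of 9 further subunits and isoforms tested, Ndufa4, a subunit now placed in cytochrome c oxidase, was lower in aged Acsl6-/- than aged control cerebellum (-0.23 ± 0.042 SE, limma adjusted p = 0.0232), as was Usmg5, a small membrane subunit of ATP synthase (-0.21 ± 0.043 SE, adjusted p = 0.0425). With age in Acsl6-/- mice 5 of the 9 fell, among them Cycs, cytochrome c (-0.20 ± 0.050 SE, adjusted p = 0.00728), and in control mice 0 passed the limma test, with 2 at an unadjusted p under 0.05 and 0 called by DESeq2 or edgeR. Of 20 complex IV assembly factors, 5 fell and 1 rose with age in Acsl6-/- mice and 7 fell in control mice, where 11.6% of all genes tested fell and 11.6% rose in Acsl6-/- mice and 16% fell in control mice. Cox14 fell in both, at -0.21 in Acsl6-/- and -0.26 in control mice, while the copper chaperone Cox17 rose in Acsl6-/- mice at 0.25. Sdhaf1, an assembly factor of complex II, fell at -0.40 in Acsl6-/- and -0.54 in control mice.

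Of 20 regulators of respiratory genes, 6 fell and 1 rose with age in control mice, among them Ppargc1b at -0.31, Polg at -0.14 and Mtpap at -0.22, with Gabpa at 0.28, where 16% of all genes fell and 15.3% rose. In Acsl6-/- mice limma, DESeq2 and edgeR called 0 of them, where limma called 11.6% of all genes lower and 11.6% higher. At an unadjusted p under 0.05 there were 5 by each tool, where 35.1% of all genes were at that level with limma. Of the 7 complex I genes on mitochondrial DNA, 5 fell with age in Acsl6-/- mice, with mt-Nd1 at -0.22, mt-Nd6 at -0.22 and mt-Nd4 at -0.17, while mt-Nd3 rose at 0.48 in Acsl6-/- and 0.60 in control mice. mt-Nd3 is nearly wholly shared with a nuclear copy.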
